A study of Caenorhabditis elegans with 2 samples.

Results

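One-direction promoter peaks of EFL-1 are the peaks whose summit, the base of highest signal, lay in the promoter window of protein-coding genes of one strand only. The window ran from 1000 bp upstream to 500 bp downstream of each annotated transcript 5' end. Of the peaks that passed the authors' irreproducible discovery rate (IDR) threshold on the genome build ce11, 911 were of this kind (48.3%, exact Clopper-Pearson 95% interval 46.0 to 50.6%). The rest of that set were 630 peaks (33.4%) that lay in windows of genes on both strands and are called divergent below, and 345 (18.3%) that lay in no such window. The choice used positions, not signal. The 911 peaks were nearest to 883 different genes, of which 856 had 1 such peak, 26 had 2, and eel-1, which encodes a ubiquitin ligase, had 3. Windows of these peaks held 936 of 19973 protein-coding genes, a background rate of 4.69% against which the counts in gene lists are read.

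The assay was ChIP-seq, the sequencing of DNA that co-precipitates with a protein, on L1 larvae of Caenorhabditis elegans of mixed sex. All worms were of strain YL418, which carries unc-119(ed3)III and the integrated transgene vrIs65, where the ges-1 promoter drives EFL-1 fused to GFP and FLAG with the 3'UTR of efl-1, and where unc-119(+) serves as a marker. The study had 1 group of 2 biological replicates, numbered 2 and 3, and no second condition, so the comparisons are between classes of peaks and with the gene annotation. The ges-1 promoter is known for activity in the intestine, and the labels write the antibody as efl-1. Its epitope (the tag or EFL-1 itself), the pooling of animals and the read depth are not stated. Intervals cover the counting of peaks or genes only, and regions and genes are not replicates of a condition.

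EFL-1 is a worm E2F protein. With its partner DPL-1 it binds DNA in the DREAM complex, which holds down cell cycle and developmental genes, and E2F factors are also classical activators of genes used in S phase. In the worm, neighbouring genes of one strand may form an operon, in which a promoter ahead of the first gene makes 1 transcript that is cut into messages by trans-splicing of a short leader. Annotated 5' ends are therefore often trans-splice sites rather than starts of transcription. Genes inside an operon usually follow the gene before them closely, although some also have a promoter of their own. Operons as such were not analysed here. Operon-like spacing means only that a protein-coding gene of the same strand ended 0 to 500 bp upstream of the gene nearest the summit.

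The following 30-base stretches are shown because they hold, at some of the strongest of these peaks, the DNA words that the motif results below count. Capitals mark TTTGAA, the central word of the cell cycle homology region (CHR) bound by DREAM through LIN-54. All are from the RefSeq copy of the same assembly (WBcel235, ce11), written 5' to 3' on the strand given, and lie 33.5 to 47.5 bp from the summit, measured from the motif's middle.
rpl-3, chrIII:3867507-3867536, minus strand: caagcgcggttgTTTGAAttcgatttcttt
sec-61.G, chrV:10897399-10897428, minus strand: ctccctttcttaTTTGAAttgccgccaatg
rpl-35, chrIII:7854629-7854658, minus strand: tgagcgcggcggTTTGAAaggaagtttttc
eelo-2, chrIV:17249835-17249864, minus strand: ttttggaggcagTTTGAAtcgagtttctga
F48A11.4, chrII:216795-216824, plus strand: gaagtaaaaataTTTGAActagaattgtga

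The second set holds the E2F consensus, in capitals, at the strongest peaks with it whose sequence is printed. The same source and direction apply. The words counted as E2F consensus are TTTCCCGC, TTTCGCGC, TTTGCCGC and TTTGGCGC on either strand, and TTTCGCGC is the one at 5 of these 6 peaks.
fbxl-2, chrIII:4757211-4757240, minus strand: atgcaatcgaaTTTCGCGCgcgcgtcgtca
wee-1.3, chrII:9716799-9716828, minus strand: gtcttctcctcTTTCGCGCgcttgttttga
pcn-1, chrIV:4049618-4049647, plus strand: gatgaatgaagTTTCGCGCgcgttttcgaa
npp-19, chrII:10798731-10798760, minus strand: ttttctctttaTTTCCCGCagaaaacctcc
mrps-16, chrII:5474116-5474145, minus strand: cacaagagtaaTTTCGCGCgaaatttaatt
mrpl-28, chrII:156162-156191, minus strand: aaacatttaatTTTCGCGCactttgcaccg

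The pooled signal of the one-direction peaks, the authors' value on a scale that is not stated, spanned a wide range. It ran from 24.4 to 2581 with a median of 67.1 and an interquartile range of 37.9 to 229.2. Divergent peaks had a median of 83.3 (44.0 to 218.3), peaks outside promoter windows 38.4 (29.7 to 56.7), and all IDR peaks 62.0. Replicate signals were divided by the replicate's own median over the IDR peaks, because raw values at the one-direction peaks were higher in replicate 2, by a median factor of 2.43. On that scale the one-direction peaks had medians of 1.065 in replicate 2 and 1.11 in replicate 3, the divergent peaks 1.29 in both, and the peaks outside windows 0.617 and 0.630. Each replicate thus placed the one-direction peaks between the other classes.

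Every one-direction peak met a region of the replicate 2 list, and 887 of 911 met one of the replicate 3 list. Scaled signals of the 887 were within 2-fold of each other at 757 peaks (85.3%), and the median separation of the replicate summits was 17 bp, against 15 bp at divergent peaks and 32 bp at peaks outside windows. In lists of each replicate's strongest regions, cut to the length of the IDR set, 839 of the 911 had a counterpart in replicate 2 and 718 in replicate 3. The IDR set was built from both replicates, so these shares are not an independent measure of reproducibility. At 4 of the peaks in replicate 2 and 5 in replicate 3, neighbouring IDR peaks met the same replicate region, as at eel-1, so those values are not separate measurements.

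The strongest one-direction peak was that of rpl-3, a ribosomal protein gene (WBGene00004414, chrIII:3867393-3867728), whose summit lay 295 bp upstream of the 5' end in intergenic sequence. Its signal was 2013 in replicate 2 and 572.9 in replicate 3, or 43.98 and 29.8 times each replicate's median. The peak at cdc-48.1, which encodes an AAA ATPase that extracts ubiquitinated proteins, had signals of 1414 and 685.3, or 30.9 and 35.7 times the median. At sec-61.G, a subunit of the translocon of the endoplasmic reticulum, the signals were 1684 and 376.1, or 36.8 and 19.6 times the median, and at rpl-35 they were 1553 and 472.1, or 33.9 and 24.6 times. Replicate 3 was the higher one on the scaled values at cdc-48.1 and the lower one at the other 3. The spreads of these neighbours in rank overlap, so their order is not resolved.

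The next 6 peaks by signal were those of eelo-2 (31.4 times the median in replicate 2 and 16.1 in replicate 3), the alpha-tubulin gene tba-2 (28.2 and 18.3), dld-1 (24.1 and 24.8), F48A11.4 (23.02 and 16.5), syf-3 (22.7 and 16.5) and ddp-1 (22.5 and 15.2). dld-1 encodes dihydrolipoamide dehydrogenase, syf-3 a splicing factor and ddp-1 a small protein of mitochondrial import. All 6 were at least 15.2 times the median in each replicate. Of these 6, 5 had operon-like spacing and 1, syf-3, did not, while none of the first 4 peaks had it.

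**Figure D1:**
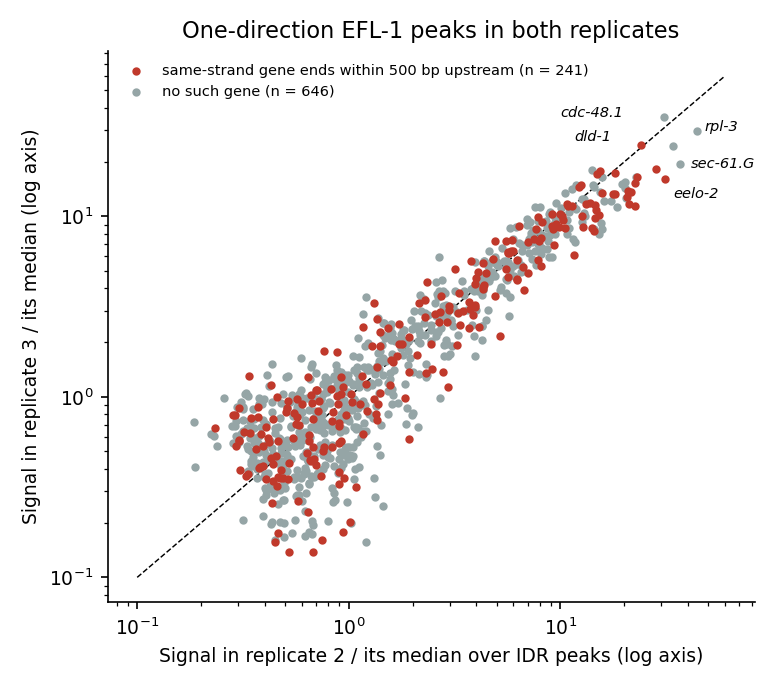
Signal of each one-direction peak in replicate 2 (horizontal) and replicate 3 (vertical) as multiples of the replicate's median over IDR peaks with a counterpart, on log axes; each point is 1 of the 887 peaks found in both replicates, red with and grey without operon-like spacing, and the dashed line marks equal values. Of these peaks 757 (85.3%) lie within 2-fold of equal values. Among the strongest, cdc-48.1 lies above the line at 30.9 and 35.7. Below it lie rpl-3 at 43.98 and 29.8, sec-61.G at 36.8 and 19.6 and rpl-35 at 33.9 and 24.6.

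Summits of the one-direction peaks lay mostly upstream of the nearest 5' end and close to it. The median distance was -205 bp, where negative values lie upstream, with an interquartile range of -346.5 to -118 bp. Divergent peaks, measured to the nearer of their genes, had a median of -131 bp (-211 to -57 bp). Of the one-direction summits 841 (92.3%) were upstream and 70 (7.68%) at or downstream of the 5' end, and 586 (64.3%) lay from 300 bp upstream to 100 bp downstream. The nearest transcript 5' end need not be the outermost one of its gene. Inside the nearest gene lay 147 summits, so some of the upstream ones were in the gene, ahead of a later 5' end. A divergent peak has genes on both sides to be near to, so its distance is shorter in part by construction.

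The stretch from 300 to 100 bp upstream held the most and the strongest one-direction peaks. It held 425 of them (46.7%), with a median pooled signal of 100.4, and 50.6% of the divergent peaks. The last 100 bp before the 5' end held 124 (13.6%, median signal 64.0), against 31.9% of divergent peaks. Between 500 and 300 bp upstream there were 167 (18.3%, median 67.3) against 7.94% of divergent peaks, and between 1000 and 500 bp upstream 125 (13.7%, median 51.3) against 2.06%. The 70 peaks from 0 to 500 bp downstream had a median signal of 49.2. The class farthest upstream was below the replicate's median in both replicates, at 0.749 in replicate 2 and 0.867 in replicate 3. Both classes beyond 300 bp thus held a larger share of one-direction than of divergent peaks.

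**Figure D2:**
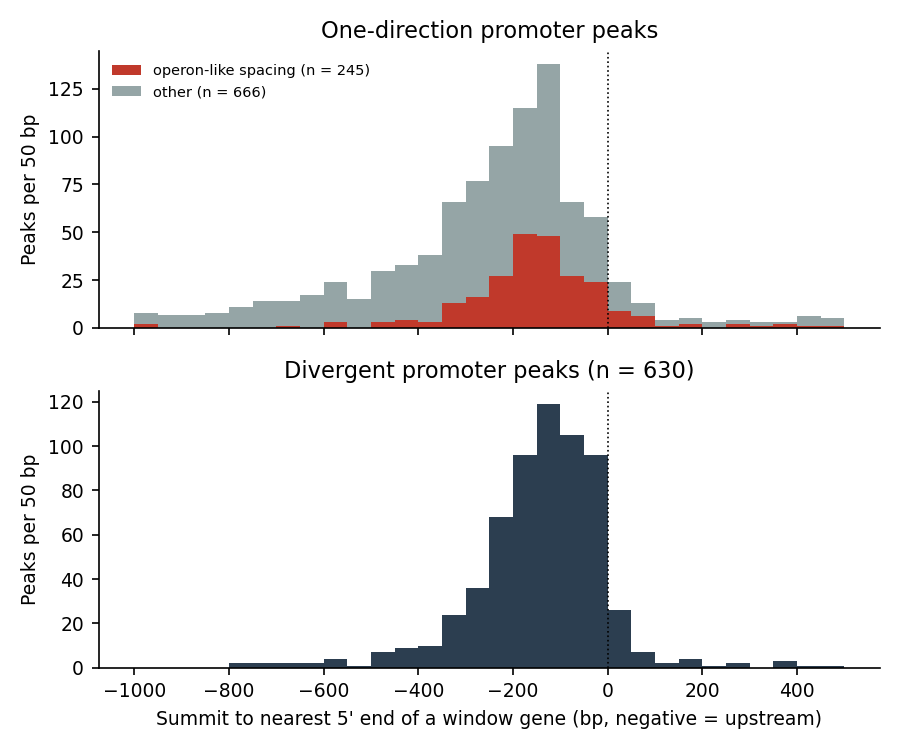
Number of peaks per 50 bp of distance from the summit to the nearest 5' end of a window gene, negative values upstream; the upper panel shows the 911 one-direction peaks, split into those with operon-like spacing (red) and the others (grey), and the lower panel the 630 divergent peaks. One-direction peaks reach farther upstream, with a median of -205 bp against -131 bp.

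Among summits at or downstream of the 5' end, the strongest was at ints-4, a subunit of the Integrator complex that cleaves small nuclear RNA, 51 bp past the 5' end, with 15.7 times the median in replicate 2 and 8.54 in replicate 3. Y65A5A.2 followed at 441 bp (11.5 and 7.48 times), Y55F3BR.1 at 82 bp (10.3 and 9.53 times) and daf-15, which encodes the Raptor subunit of a TOR kinase complex, at 17 bp (9.57 and 9.09 times). Y55F3BR.1 and daf-15 had operon-like spacing, with gaps of 67 and 493 bp.

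A same-strand gene ended within 500 bp upstream at 245 of the 911 peaks (26.9%, 24.04 to 29.9%). Over all protein-coding genes the share was 3618 of 19973 (18.1%). That base is not like for like, since genes with a close head-to-head neighbour can hardly have a one-direction peak. Where a summit set 205 bp upstream would itself count as one-direction, a base chosen after the data were seen, the share was 3486 of 15582 genes (22.4%, 21.7 to 23.03%). No test of this difference was made. Only 2 of 630 divergent peaks had such spacing at the nearest gene, which follows from the geometry.

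Peaks with operon-like spacing had a higher median signal than the others. Their median pooled signal was 101.4 (41.04 to 383.0), against 63.4 (37.0 to 181.7) for the 666 others. With a gap limit of 200 bp in place of 500 bp, the ratio of these medians was 0.987 in place of 1.60, so the direction depends on that limit. In replicate 2 the medians were 1.404 and 1.017 times the replicate's median, and in replicate 3 they were 1.59 and 1.018. The interquartile ranges have like lower ends and differ at the upper end, and the medians differ by more between the spacing classes than between the replicates. Their summits lay a median of 149 bp upstream, against 246 bp, and the gap limits how far upstream such a summit can lie before it enters the gene in front.

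At like distance the difference in signal was seen mainly between 500 and 100 bp upstream. From 300 to 100 bp upstream the 140 peaks with operon-like spacing had a median of 153.0, against 77.8 for 285 others. The scaled medians there were 2.29 against 1.33 in replicate 2 and 2.42 against 1.33 in replicate 3. From 500 to 300 bp upstream the medians were 110.9 (23 peaks) against 63.9 (144 peaks). In the last 100 bp they were 64.7 (51 peaks) and 63.9 (73 peaks), and from 1000 to 500 bp upstream 50.7 (6 peaks) and 51.3 (119 peaks). Downstream of the 5' end they were 43.98 (25 peaks) and 55.5 (45 peaks), and the replicates differed in direction, with 0.737 against 0.910 times the median in replicate 2 and 0.742 against 0.724 in replicate 3.

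Most summits with operon-like spacing lay past the end of the gene in front and upstream of the nearest transcript 5' end. There were 203 of 245 such summits (82.9%), 25 (10.2%) at or past that 5' end and 17 (6.94%) inside the gene in front. The gap was measured to the outermost 5' end of the gene. The 203 may therefore include summits inside the gene, ahead of a later 5' end. The gaps had a median of 269 bp (196 to 384 bp), against 186 bp (103 to 337 bp) over all 3618 genes with operon-like spacing.

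EFL-1 peaks were spread unevenly over the gaps. A one-direction peak was nearest to 26 of 809 genes with a gap of 0 to 100 bp (3.21%, 2.11 to 4.67%) and to 41 of 1094 with a gap over 100 and up to 200 bp (3.75%, 2.70 to 5.05%). Over 200 and up to 300 bp it was 76 of 612 (12.4%, 9.91 to 15.3%), up to 400 bp 51 of 577 (8.84%, 6.65 to 11.5%) and up to 500 bp 48 of 526 (9.13%, 6.81 to 11.9%). The share was thus about level below 200 bp and higher above, and the intervals on the sides of that step do not overlap. Median summit distances by rising gap were -31, -81, -149, -163 and -216 bp. A short gap leaves less room for a summit between the genes, and the part of that room in these shares was not tested. Genes without operon-like spacing had a peak in 641 of 16355 cases (3.92%), a figure held down by head-to-head pairs, whose peaks count as divergent. Median signals by rising gap were 49.6, 101.4, 105.6, 104.1 and 146.8. The 100-bp steps were chosen after the data were seen.

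**Figure D3:**
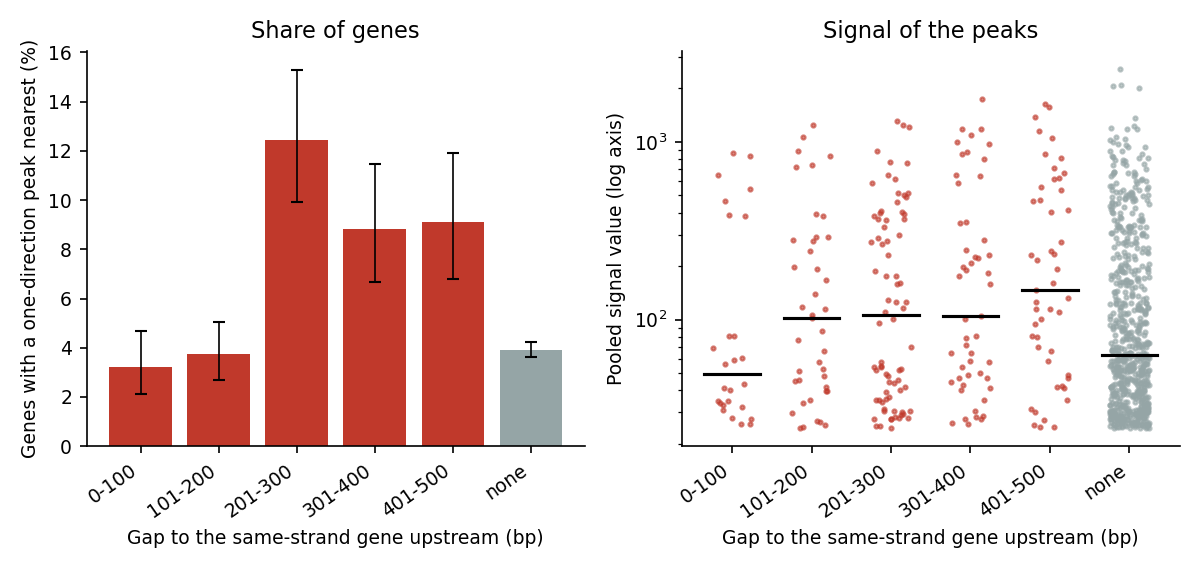
Left, share of protein-coding genes that are nearest to a one-direction peak, by the gap to the same-strand gene in front (bars, with exact 95% intervals); right, pooled signal of those peaks on a log axis, each point 1 peak and each line the median; "none" holds genes without operon-like spacing. The share is 3.75% in the class that ends at 200 bp and 12.4% in the class that ends at 300 bp, and the median signal is lowest, at 49.6, for gaps of at most 100 bp.

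The signal did not drop at the 500-bp limit. Where the nearest upstream neighbour was on the same strand with a gap over 500 and up to 1000 bp, the 132 peaks had a median of 106.4, or 1.56 times the median in replicate 2 and 1.80 in replicate 3. With gaps over 1000 and up to 2000 bp the 76 peaks had a median of 49.9 (0.701 and 0.827 times), and with larger gaps the 87 peaks had 53.5 (0.856 and 0.885 times). The 334 peaks whose upstream neighbour was head to head with the gene, with a 5' end too far off for its window to hold the summit, had a median of 63.4 (1.01 and 0.993 times). Both replicates gave tandem gaps of up to 1000 bp a higher median than wider ones, in classes that too were chosen after the data were seen.

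The strongest peaks with operon-like spacing had the following neighbouring genes of the same strand. In front of eelo-2, ZK550.2 ended 381 bp upstream, and the summit lay 234 bp from eelo-2. In front of tba-2 the proteasome gene pbs-2 ended 421 bp upstream, the summit lay 141 bp from tba-2, and 3 further genes followed at operon-like spacing. In front of dld-1, nspg-9 ended 419 bp upstream, with the summit 273 bp from dld-1.

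F48A11.4 followed ubxn-3, a gene for a cofactor of CDC-48, after 428 bp, with the summit at 142 bp. ddp-1 followed hlh-33, a helix-loop-helix gene, after 286 bp, with the summit at 149 bp and 2 genes after it. At the F-box gene fbxl-2 the gap to rbg-3 was 239 bp, the summit lay 84 bp upstream, and the signal was 22.4 times the median in replicate 2 and 11.4 in replicate 3. In all 6 cases the summit lay upstream of the nearest 5' end by less than the length of the gap.

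Genes that lead a close run of same-strand genes had a one-direction peak more often than lone ones. Of the genes without operon-like spacing, 441 of 13703 with no such follower had a peak (3.22%, 2.93 to 3.53%), against 144 of 2002 with 1 follower (7.19%, 6.10 to 8.41%) and 56 of 650 with 2 or more (8.62%, 6.57 to 11.04%). Median pooled signals in these classes were 60.1, 67.5 and 91.8. Within runs, genes with operon-like spacing and no follower had a peak in 143 of 2674 cases (5.35%), and those with a follower in 99 of 944 (10.5%, 8.61 to 12.6%). The signals ran the other way there, with medians of 112.2 without a follower (1.67 times the median in replicate 2 and 1.94 in replicate 3) and 79.9 with one (1.35 and 1.17 times). Among the peaks without operon-like spacing 204 of 666 (30.6%) were at a leading gene, against 1721 of 12096 genes (14.2%) at which a summit 205 bp upstream would be one-direction. No test was made of these shares.

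The rule asked only about protein-coding genes, and 123 of the 911 peaks (13.5%, 11.4 to 15.9%) had a non-coding gene of the other strand in the window, piRNA genes left out. They were mostly of the class annotated as ncRNA (77 peaks), beside snoRNA (12), pseudogenes (12), tRNA (11), lincRNA (7), snRNA (4) and miRNA genes (3). The nearest protein-coding 5' end of the other strand was a median of 4204 bp away (2338 to 8031 bp), and 27 peaks lay within 100 bp of the window of such an end. The summit lay in no protein-coding gene at 725 peaks (79.6%), inside the nearest gene at 147 and inside another gene at 45. A summit inside both kinds of gene counts under each.

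The words shown above were counted within 100 bp of each summit. TTTGAA was present at 486 one-direction peaks (53.3%, 50.05 to 56.6%), against 50.95% of divergent peaks and 38.6% of peaks outside windows. Over all protein-coding genes, a window of the same length from 50 to 250 bp upstream held it in 9911 of 19973 cases (49.6%), so the overall share is near that base. The E2F consensus was present at 114 one-direction peaks (12.5%, 10.4 to 14.8%), against 12.2% of divergent peaks, 12.5% of peaks outside windows and 3.58% of the promoter stretches. Both were present at 75 peaks (8.23%). By word, TTTCGCGC was at 55 peaks, TTTCCCGC at 35, TTTGGCGC at 17 and TTTGCCGC at 15.

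TTTGAA was most frequent in the first quartile, the one-direction peaks of highest signal. There it was at 187 of 228 peaks (82.0%, 76.4 to 86.8%), then at 50.9% in the second quartile, 40.4% in the third and 40.1% in the lowest. All promoter stretches held it at 49.6%. The intervals of the third quartile (33.9 to 47.0%) and of the lowest (33.7 to 46.8%) lay below that share. The E2F consensus was at 16.7%, 17.1% and 12.3% in the first 3 quartiles and at 9 of 227 (3.96%, 1.83 to 7.39%) in the lowest, close to the 3.58% of all promoter stretches. Peaks with TTTGAA had a median signal of 125.9, or 1.93 times the median in replicate 2 and 2.34 in replicate 3, against 52.4 (0.805 and 0.827 times) without it. With the E2F consensus the median was 133.9 (2.05 and 1.995 times), against 63.7 (1.015 and 1.03 times) without.

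Other measures moved with signal as well. The median GC content of the summit windows was 37.8% in the highest quartile and 41.3% in the lowest, and the summits of the replicates were 6.5 bp and 38 bp apart, so the word search was centred less exactly at weak peaks. The part of base composition and of summit position in the TTTGAA shares was not tested. Where present, the nearest TTTGAA lay a median of 33.5 bp from the summit, and the E2F consensus 26.5 bp, within 25 bp at 51 of 114 peaks. TTTGAA read on the gene's strand at 275 of 486 peaks (56.6%, 52.05 to 61.04%), against 48.6% (43.01 to 54.2%) at divergent peaks, where the gene is the nearer one, and the intervals overlap. Peaks with operon-like spacing held TTTGAA at 56.7% and the E2F consensus at 13.5%, against 52.1% and 12.2% of the others, with overlapping intervals.

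**Figure D4:**
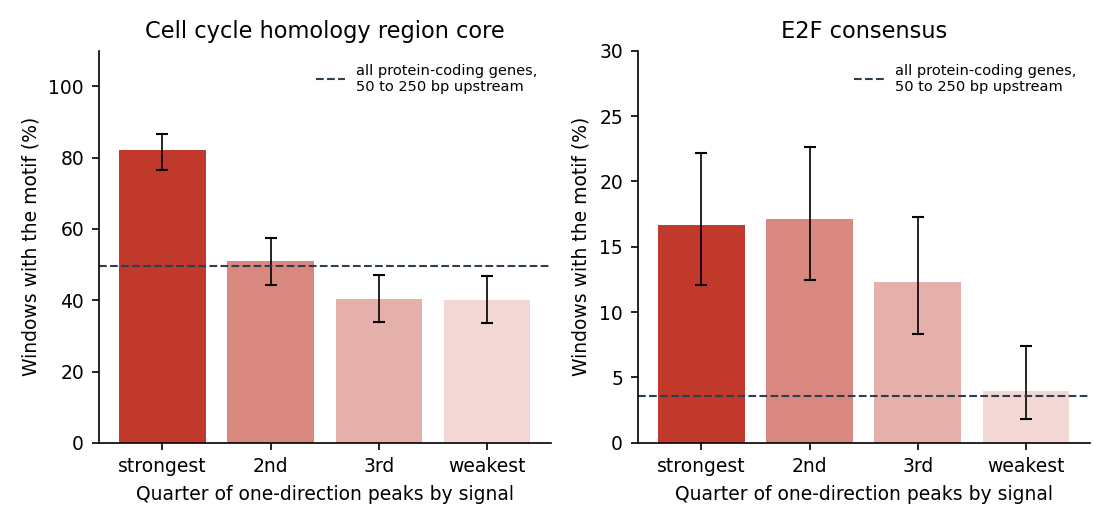
Share of one-direction peaks with the CHR word (left) and the E2F consensus (right) within 100 bp of the summit, by quartile of pooled signal; bars carry exact 95% intervals and the dashed line is the share over promoter stretches of all protein-coding genes. The CHR word stands at 82.0% in the highest quartile and 40.1% in the lowest, and the E2F consensus at 16.7% and 3.96%.

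Cell cycle genes, the classical targets of E2F, were well represented. Of 44 DNA replication genes 14 had a one-direction peak (31.8%, 18.6 to 47.6%, background 4.69%), 22 had only a divergent one and 8 had none. As a base for the divergent counts of the lists, 1283 of all 19973 protein-coding genes lay in the window of a divergent peak. Of those, 19 were also in the window of a one-direction peak. The sliding clamp gene pcn-1 led, with 15.3 times the median in replicate 2 and 7.98 in replicate 3. psf-3, for a subunit of the GINS complex, had 7.87 and 7.04, pole-1, a polymerase gene, 7.34 and 7.21, and the helicase gene mcm-4 6.996 and 4.86. The 14 peaks had a median signal of 184.4, and 12 were among the 943 strongest IDR peaks, against 482 of all 911 one-direction peaks (52.9%). TTTGAA was at 11 of the 14 and the E2F consensus at 9, against 53.3% and 12.5% of all one-direction peaks, the base for each list below. TTTGAA was more frequent at strong peaks, and the part of signal in the list counts was not tested.

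All 5 DNA replication genes with operon-like spacing, mcm-4, mcm-5, rnr-1, tyms-1 and crn-1, held the E2F consensus, and their gaps were 204 to 282 bp. At crn-1 the summit lay 408 bp upstream, a distance larger than its gap of 282 bp. They are named here after their values were seen. rnr-1 encodes a ribonucleotide reductase subunit and tyms-1 thymidylate synthase, both needed to make DNA precursors. Their scaled signals were 2.15 and 3.30 at rnr-1, 4.32 and 3.96 at tyms-1, and 1.93 and 1.37 at mcm-5, in replicates 2 and 3. At the licensing gene cdt-1 the summit lay 5 bp upstream of the 5' end, with 3.05 and 2.65 times the median. The weakest of the list, rpa-2 and evl-18, lay below the median in both replicates.

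Of 77 mitosis and cell cycle genes 17 had a one-direction peak (22.1%, 13.4 to 32.98%), 38 only a divergent one and 22 none. The strongest was at wee-1.3, a kinase gene that restrains CDK-1, with 14.45 times the median in replicate 2 and 14.5 in replicate 3. The condensin gene kle-2 lay in the window of a peak with 12.6 and 10.01 times the median, whose nearest gene was C29E4.12, ahead of kle-2 on the same strand. The same held for sas-4, a centriole gene behind F10E9.11, at 7.67 and 8.54 times, and for the gamma-tubulin gene tbg-1 behind rpac-19, at 1.22 and 0.831 times. Among the kinetochore genes of the list, hcp-1 had 3.76 and 3.05 times the median in replicates 2 and 3, the centromeric histone gene hcp-3 2.36 and 2.84, hcp-4 1.87 and 2.03, mis-12 1.47 and 2.565, knl-2 1.45 and 2.21, and knl-1 1.21 and 1.17. The spindle checkpoint gene mdf-1 had 3.45 and 2.98. TTTGAA was at 14 of the 18 peaks of this list and the E2F consensus at 5, against 53.3% and 12.5% of all one-direction peaks.

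The list of DREAM complex and synMuv B genes had 4 one-direction peaks among 22 genes (18.2%, 5.19 to 40.3%). It also held the synMuv A genes lin-8, lin-15A, lin-38 and lin-56 and a further E2F gene, efl-2. lin-9, a core subunit of DREAM, had 8.82 and 5.92 times the median in replicates 2 and 3, and its summit window held both words. lin-36 had 3.12 and 3.13, dpl-1, the partner of EFL-1, 1.55 and 2.2, and lin-13 0.904 and 0.750. Only a divergent peak was at 6 genes, efl-1, lin-35, lin-38, lin-53, lin-54 and lin-61. The other 12 genes had no promoter peak, among them lin-37, lin-52, lin-15B and efl-2.

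Ribosomal protein genes had peaks at a share near that of DNA replication genes, with summits farther upstream and fewer of the counted words. Of 81 genes 23 had a one-direction peak (28.4%, 18.9 to 39.5%), 43 only a divergent one and 15 none. Apart from rpl-3 and rpl-35, rpl-24.2 had 20.1 and 14.4 times the median and rpl-41.2 9.16 and 5.92. The other 19 lay between 27.1 and 188.6 in pooled signal, and the median of all 23 was 94.2. Their summits lay a median of 286 bp upstream, against 143 bp for the DNA replication genes and 205 bp for all one-direction peaks. TTTGAA was at 8 of the 23 and the E2F consensus at 1, that of rps-17, against 11 and 9 of 14 at DNA replication genes. No test between lists was made.

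Mitochondrial ribosomal protein genes had 10 one-direction peaks among 70 genes (14.3%, 7.07 to 24.7%), with a median signal of 264.0. The strongest were mrps-16, at 10.05 and 11.2 times the median in replicates 2 and 3, and mrpl-28, at 9.40 and 9.24. Neither held TTTGAA, and both held the E2F consensus, as did 5 of the 10. Translation factor genes had peaks at 9 of 39 (23.1%), led by the initiation factor genes eif-3.C (18.07 and 17.3) and eif-3.B (10.7 and 9.56). The eif-3.C gene had a gap of 401 bp behind sys-1, a beta-catenin gene. None of the 10 peaks of this list held the E2F consensus.

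Nuclear pore and transport genes had peaks at 11 of 40 (27.5%, 14.6 to 43.9%), and their median signal of 395.6 was the highest of the lists. The importin genes ima-2 (18.6 and 11.2 times the median in replicates 2 and 3) and imb-3 (15.98 and 12.2) and the nucleoporin gene npp-19 (10.5 and 13.4) led. Of the 11 peaks 10 were among the 943 strongest IDR peaks, 9 held TTTGAA and 5 the E2F consensus. Over all one-direction peaks these shares were 52.9%, 53.3% and 12.5%. Proteasome genes had peaks at 7 of 33 (21.2%), the strongest at rpn-11, the deubiquitinase of the lid, with 9.13 and 10.3 times the median, 35 bp upstream and 225 bp behind K07D4.2. pas-5, an alpha-ring subunit, followed with 5.57 and 4.44.

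The lists of collagens, nuclear hormone receptors and intestine genes stayed near or below the background of 4.69%. Collagens had one-direction peaks at 2 of 156 genes (1.28%, 0.156 to 4.55%), col-85 and col-72, with summits 396 and 451 bp past the 5' end and both below the median in each replicate. Nuclear hormone receptor genes had them at 4 of 269 (1.49%, 0.407 to 3.76%), with nhr-85 and nhr-41 the strongest, at 0.569 and 0.667 times the median in replicate 2 and 0.360 and 0.205 in replicate 3. Intestine genes had them at 2 of 37 (5.41%, 0.662 to 18.2%), erm-1 (0.585 and 0.542) and ges-1 (0.570 and 0.394). The transgene carries the ges-1 promoter, and at ges-1 its reads cannot be told apart from those of the native gene. None of these 8 peaks was among the 943 strongest, against 52.9% of all one-direction peaks.

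**Figure D5:**
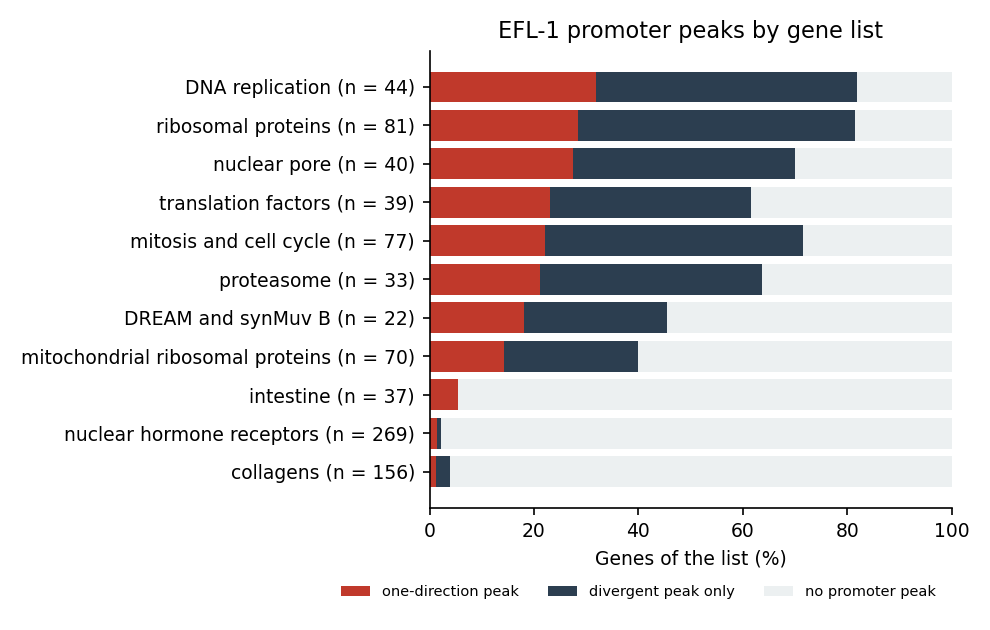
Share of each gene list with a one-direction peak in the promoter window (red), with only a divergent one (dark) and with neither (pale), ordered from the highest one-direction share at the top. DNA replication genes reach 31.8% and ribosomal protein genes 28.4%, while collagens stand at 1.28%. The list of DREAM and synMuv B genes also holds efl-2 and the synMuv A genes lin-8, lin-15A, lin-38 and lin-56.

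By chromosome, the one-direction class made up 44.2 to 51.04% of the peaks of each autosome and 60 of 99 (60.6%, 50.3 to 70.3%) on X. Divergent peaks numbered 7 on X. Of X-linked genes 2.23% had a one-direction peak, against 5.08% of autosomal genes. The X-linked peaks were weak, with a median pooled signal of 40.9 against 72.7 on autosomes, and with medians of 0.721 in replicate 2 and 0.540 in replicate 3. Operon-like spacing was at 7 of them (11.7%), against 238 of 851 (27.97%) on autosomes. The share over all genes of X and of the autosomes is not given here, so the part of gene layout in this difference was not tested. In lists of each replicate's strongest regions, cut to the length of the IDR set, 56 of the 60 were present in replicate 2 and 30 in replicate 3. Their summit windows held a median of 47.3% GC.

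At the lower end, the 3 weakest one-direction peaks were those of nipi-3, a pseudokinase gene (0.345 and 0.423 times the median in replicates 2 and 3), ifbp-1 (0.394 and 0.273) and fbxa-10 (0.392 and 0.414). At the edges of the window, the summits nearest to its upstream limit were at nhr-85 (995 bp) and nhr-34 (983 bp), with pooled signals of 38.5 and 29.8, and the nearest outside it were at wdr-83 (1002 bp, 25.6) and fbxb-58 (1006 bp, 54.2). At the downstream limit, rskn-2 (485 bp, 50.1) and Y56A3A.7 (462 bp, 60.7) lay inside, and cpz-1 (526 bp, 49.9) and spe-15 (560 bp, 81.8) outside. Values inside and outside were alike in size. Most peaks, 858, had 1 gene in the window, 52 had 2, and the one with 3 was at ZK856.11, with 0.889 and 0.915 times the median.

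Some one-direction peaks lay at loci of which the transgene carries a part. At unc-119 there were 2, with summits 45 and 292 bp past a 5' end. Their scaled signals were 0.752 and 0.994 in replicate 2 and 0.477 and 0.453 in replicate 3. The ges-1 summit lay 563 bp upstream, with raw signals of 26.1 and 7.58. At these loci, reads from the transgene and from the native gene cannot be told apart in peak lists, and all 3 peaks were below the median of each replicate.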

How the data were processed

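The values analysed are the signal values (column 7) and summits (column 10) that the authors deposited in narrowPeak lists on ce11: an IDR set of 1886 peaks, and 1 list of 30000 regions for each of replicates 2 and 3, per the notes deposited with the files. No source used here names the caller, the aligner or their versions. The deposited signal has no stated unit and its scale differs between lists, and read depth is unknown, so no interval on signal is given. The ce10 lists and the pooled list were not used.

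Summits were placed against Ensembl release 115 (WBcel235, the same assembly) with Python 3.11.15, numpy 2.4.6 and scipy 1.17.1 for intervals. The nearest 5' end among the window genes gave a peak its gene. A peak's replicate value was the strongest replicate region sharing at least 1 bp with it, divided by that replicate's median (45.8 and 19.2) over IDR peaks with a counterpart. Of the list genes, 5 written for DNA replication, 2 for mitosis and 1 for intestine matched no symbol. Peaks and genes were described by counts, medians and exact 95% intervals, with no test, because 1 group of 2 replicates has no contrast. The functions were checked on simulated data.

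Genes named were the 10 strongest peaks, the 6 strongest with operon-like spacing, the 4 strongest with downstream summits, the 2 strongest of each of 11 lists, the 3 weakest, those nearest the window's edges and those with most window genes. Further list members were named after their values were seen. The members and lists were chosen with earlier results of these data known. Sequences were taken from the 6 strongest peaks per motif where printing was allowed, and 1 of them is not reported here.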

Additional observations from a re-analysis of the deposited data

How the results depend on the processing

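Of 60 recomputed values, 23 stayed within the 95% interval of the share, or within the SD of the 2 single-replicate values for medians and ratios, 36 moved beyond it and 1 changed direction. To leave a replicate out, the IDR set was replaced by the strongest regions of the other replicate's list, cut to the same number. These regions kept their own summits and signals, so they are not the same peaks. With replicate 2 or 3 left out in this way, the one-direction share was 46.7 to 47.7% and the median distance -205 to -203 bp. The median signal over that of all peaks was 1.09 to 1.15, and the operon-like share 25.9 to 26.6%. The signal ratio by spacing was 1.69 to 1.75, and the difference in distance 94.0 to 95.5 bp. TTTGAA was at 51.8 to 54.9% and the E2F consensus at 12.2 to 12.6%.

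The signal ratio between peaks with and without operon-like spacing, 1.60, became 0.987 with a gap limit of 200 bp, the only change of direction, and 1.81 with 1000 bp. The operon-like share was 7.36% and 41.8% with these limits and 30.7% with upstream genes of any biotype, by construction. The difference in median distance, 97.0 bp, was 152.5 and 59.0 bp with these limits. In the strongest 943 peaks the one-direction share was 51.1%, the median distance -178.5 bp, the relative signal 1.17, the difference in distance 70.5 bp, TTTGAA 64.7% and E2F 15.98%. With a window from 300 bp upstream to 100 bp past the 5' end they were 45.8%, -150 bp, 1.45 and 12.5 bp, with a signal ratio by spacing of 1.43. With outermost 5' ends they were 45.3%, -202.5 bp, 1.15 and 99.0 bp. Without peaks facing any other-strand gene they were 41.8%, -195 bp, 1.16 and 84.0 bp, with a ratio of 1.73. In motif windows of 50 and 250 bp on each side TTTGAA was at 38.5 and 82.3%, and E2F at 9.33 and 17.7%. Wider windows hold more words by construction, and the cause of the other changes was not tested. No paired analysis was possible because 1 group has no contrast. Peak lists without read counts, 2 replicates and the transgene's promoter limit all values.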
